A study of Mus musculus with 4 samples.

Results

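The genes described here encode the factors that start and extend protein synthesis and the enzymes that load amino acids onto tRNAs, in mouse colon cells exposed to products of a probiotic bacterium. They were chosen by name: every probe set with 1 gene symbol beginning with Eif1 to Eif6 (without the eIF2 kinases, Eif2ak) or with Eef1 or Eef2, and every gene named for an aminoacyl-tRNA synthetase. This gave 74 of the 12394 genes with a single symbol, on 157 probe sets: 48 factor genes and 26 synthetase genes. The cells were YAMC, a conditionally immortalised line from the colon epithelium of young adult mice, either without treatment or after 16 h in medium conditioned by Lactobacillus GG (LGG). Total RNA went onto 4 mouse 430A arrays, 2 per group. By their titles they form 2 pairs, an untreated with a treated array under the same date (here date 1 and date 2). What the dates mark is not given in the titles. Whether separate cultures lie behind the arrays is not stated in the labels. All p-values and errors here therefore measure only the spread between these arrays, which may be technical. All arrays come from 1 cell line, and cells given unconditioned medium were not analysed here, so products of LGG and effects of acid or of the medium itself cannot be told apart.

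Translation begins when eIF2, bound to GTP and the initiator tRNA, joins the small ribosomal subunit with eIF1, eIF1A, eIF3 and eIF5. The eIF4 group (the cap-binding eIF4E, the helicase eIF4A and the scaffold eIF4G) brings that subunit to the mRNA, and eIF2B recharges eIF2 with GTP after each round. Stress kinases phosphorylate eIF2, which blocks eIF2B, lowers overall synthesis and favours translation of the transcription factor ATF4. ATF4 is known to induce amino acid transporters, biosynthetic enzymes and many cytosolic synthetases. Elongation then needs eEF1A, which delivers loaded tRNAs, and eEF2, which moves the ribosome along the mRNA.

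The letters that ATF4 and its C/EBP partners are known to bind at amino acid response genes were looked for because the synthetases are among the textbook targets of ATF4. The motif searched was TGATGNAA on both strands, in the RefSeq promoters of build GRCm38.p6, each 300 bases long and running from 250 bases before to 50 after an annotated start. It occurred in 3.97% of all 32851 promoters. Of the 18 cytosolic synthetase genes, 11 had a promoter in that table and 5 of the 11 held the motif (Aars, Gars, Iars, Tars and Yars). Of 38 factor genes with a promoter, 2 held it (Eef2k and Eif2s3x), and of 6 mitochondrial synthetase genes 0 did. The 30-base windows of 4 of these synthetase genes and of both factor genes are written 5′ to 3′ on the strand of the gene, with the matching letters in capitals. Asns, Nupr1 and Trib3, which are response genes outside the family, follow for comparison.
Gars: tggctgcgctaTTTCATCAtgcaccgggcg
Iars: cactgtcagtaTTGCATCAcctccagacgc
Tars: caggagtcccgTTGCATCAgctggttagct
Yars: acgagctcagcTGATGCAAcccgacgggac
Eef2k: ctttctgcttgTTTCATCAagctcagcttg
Eif2s3x: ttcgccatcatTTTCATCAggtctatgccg
Asns: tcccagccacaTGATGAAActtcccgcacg
Nupr1: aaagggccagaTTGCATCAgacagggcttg
Trib3: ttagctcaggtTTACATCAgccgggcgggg

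The window of Gars lies at chr6:55037960-55037989 (plus strand, match 30 bases before the start) and that of Tars at chr15:11399655-11399684 (minus strand, 15 bases before). In Iars (chr13:49682126-49682155, plus strand) and Yars (chr4:129189895-129189924, plus strand) the matches begin at transcribed bases 8 and 4. The windows of Eef2k (chr7:120851094-120851123, plus strand) and Eif2s3x (chrX:94212729-94212758, minus strand) have matches 84 and 96 bases before the start. Those of Asns, Nupr1 and Trib3 lie at chr6:7693214-7693243, chr7:126625562-126625591 and chr2:152344028-152344057, all on the minus strand. A match describes the letters only and is no evidence that a factor binds there in these cells.

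The values are linear array intensities as the authors deposited them, and array means, trimmed by 2% at each end, lay between 500.1 and 513.5. At date 1, 6307 of the 22690 probe sets were empty on both arrays, among them 56 of the 157 member probe sets. Of the other 101, 94 had a mean intensity of at least 101 and were tested, so 64 member genes (40 factors and 24 synthetases), each taken by its brightest probe set, were compared out of 6952 genes in all. Gapdh probes at the 3′ end gave 0.805 and 0.784 times the signal of those at the 5′ end without treatment, and 0.931 and 0.768 times with it. Epithelial identity was only partly borne out by the marker genes. Of 12 colon epithelial markers 3 passed the intensity filter (Krt8, Krt18 and Krt19), while Epcam lay between 6 and 9 and Vil1 between 1.7 and 10.5 on every array. Of 7 fibroblast markers 5 passed, and their summed intensity over all 7 was 32630 and 27804 on the untreated and 24374 and 22768 on the treated arrays. Of 5 leukocyte markers 2 passed, with sums of 513 and 333 untreated and 602 and 594 treated, and the defining marker Ptprc stayed between 15.4 and 37.2. Of 4 endothelial markers 1 passed. The part of these marker levels in the results below was not tested.

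The family as a whole moved little. Of 40 factor genes 1 rose and 0 fell after LGG conditioned medium, and of 24 synthetase genes 0 rose and 0 fell (limma, blocked by date, at a Benjamini-Hochberg adjusted p below 0.05 over all probe sets). Among all genes tested, 3.01% rose and 3.5% fell, 6.5% together. At an unadjusted p under 0.05 there were 5 factor genes (Eif4a2, Eif2b4, Eif4ebp1, Eif4a1 and Eif4g2) and 2 synthetase genes (Aars and Rars), against 20.3% of all genes. The fitted change was at least 0.5 on the log2 scale in 3 of 40 factor genes and 0 of 24 synthetase genes, against 19.9% of all genes. The absence of calls is not the same as no change, so the interval of each change was also read. The 95% interval lay within a 2-fold change in either direction for 38 of 40 factor genes, all but Eif2b4 and Eef1akmt1, and for 24 of 24 synthetase genes, against 79% of all genes. Intervals narrow with brightness in this fit, and the median untreated intensity was 2691 for factors and 844 for synthetases against 532 for all genes.

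**Figure D1:**
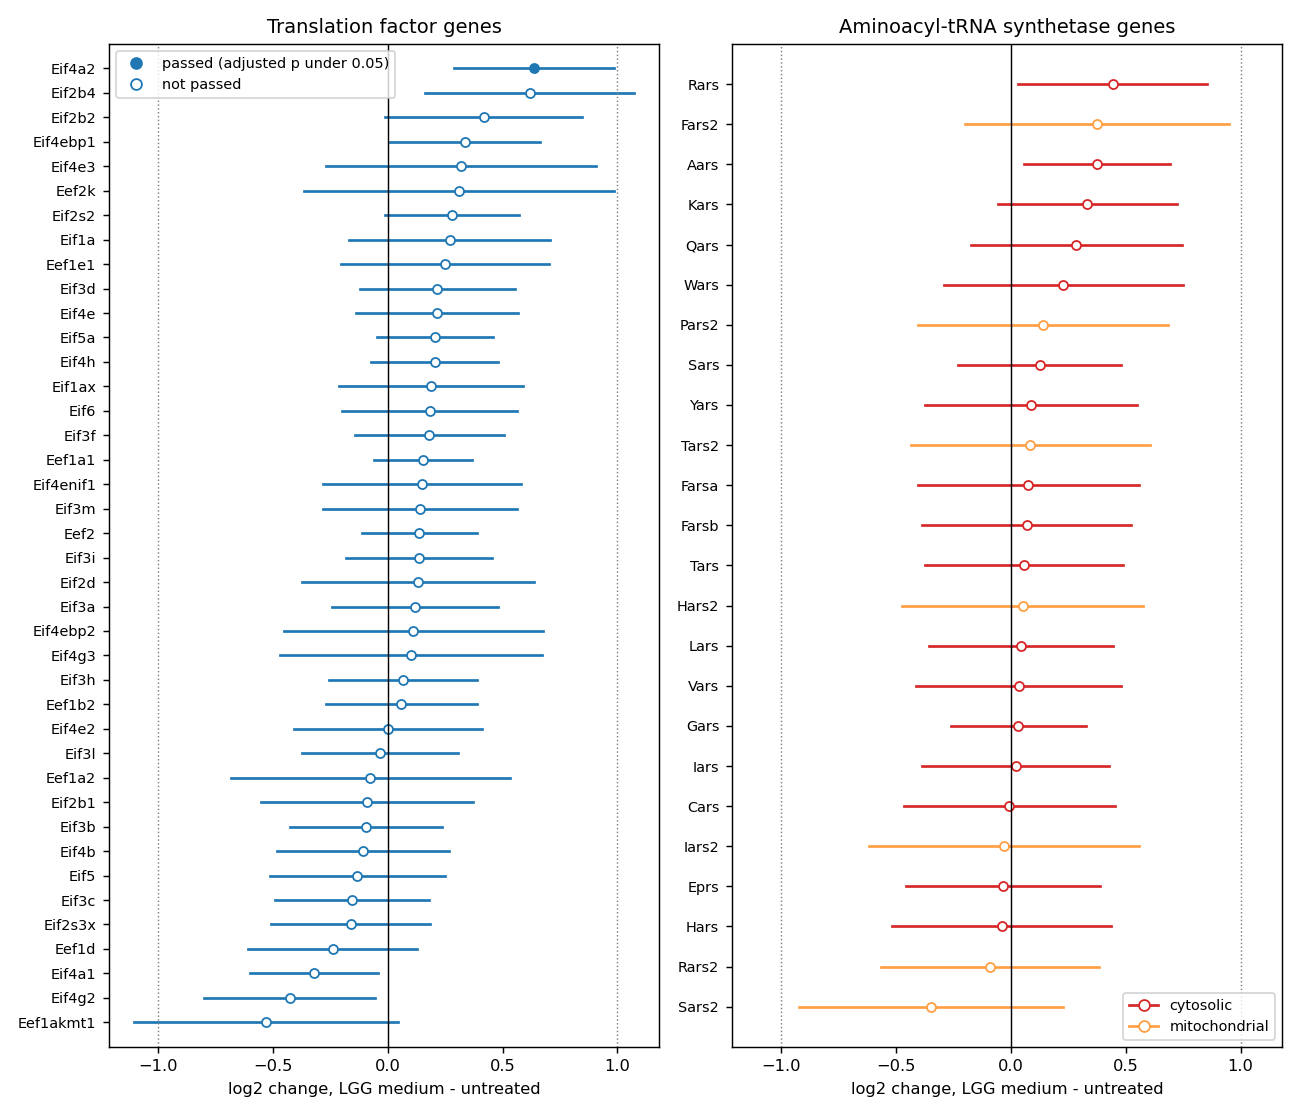
Fitted log2 change (treated minus untreated) of 40 factor genes (left) and 24 synthetase genes (right), 1 row per gene, with the 95% interval from limma as a bar (in the right panel red for cytosolic and orange for mitochondrial enzymes) and dotted lines at a 2-fold change. Eif4a2 is the single filled point (passed), and all intervals but those of Eif2b4 and Eef1akmt1 stay inside the dotted lines.

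Among the member genes tested, the small changes leaned upward. Member probe sets with values at date 2 only, counted singly and not by gene, did not. Of 43 above the intensity filter on an array, 18 were higher when treated, against 52.1% of all such probe sets. Of the factor genes 28 of 40 had a fitted change above 0, and of the synthetase genes 18 of 24, against 53.8% of all genes. The median log2 change was 0.14 for factors and 0.06 for synthetases, against 0.03 for all genes. Under quantile normalization 26 factor and 19 synthetase genes were above 0. With 1 array left out, 27 or 28 factor genes were above 0. For synthetases the count ran from 14 (without the treated array of date 1) to 19, and the share among all genes from 51.2% to 55.6%. Fits with 1 array left out, here and below, had no date block and so did not pair the arrays. The middle 50% of factor genes lay between -0.08 and 0.22 and that of synthetase genes between 0.02 and 0.16, while that of all genes ran from -0.22 to 0.26. Both treated arrays exceeded both untreated arrays in 13 of 40 factor genes and 9 of 24 synthetase genes, against 26.2% of all genes. They lay below both in 3 factor genes (Eif4a1, Eif4g2 and Eef1akmt1) and 0 synthetase genes, against 22.3% of all genes.

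**Figure D2:**
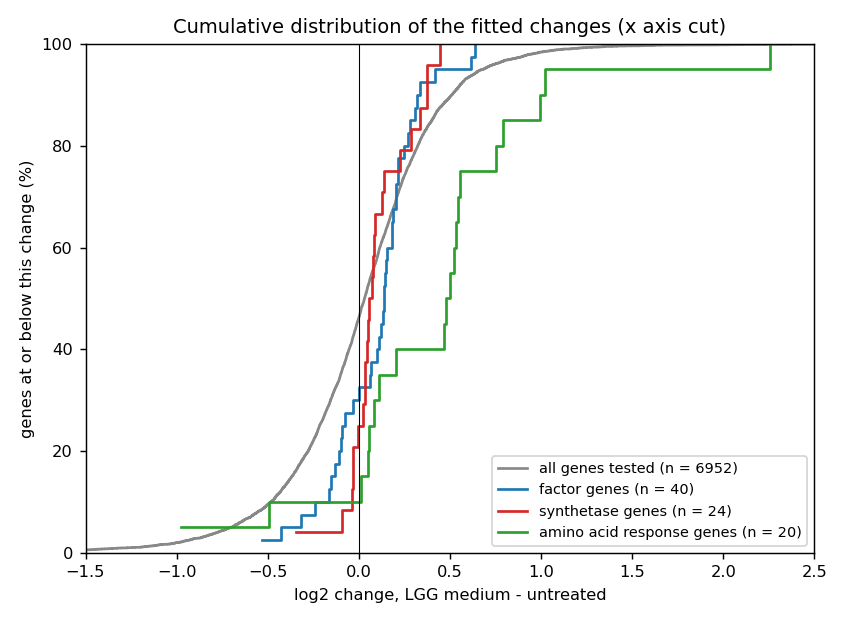
Cumulative share of genes (vertical axis, %) at or below each fitted log2 change (horizontal axis, cut at -1.5 and 2.5) for all genes tested, factor genes, synthetase genes and 20 amino acid response genes. The curves of factors and synthetases are steep and cross 50% at 0.14 and 0.06, and that of the response genes crosses at 0.49.

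The one factor gene that passed was Eif4a2, which encodes one of the 2 eIF4A helicases that unwind mRNA leaders. Without treatment Eif4a2 measured 2192.8 at date 1 and 3014.4 at date 2, and with treatment 3778.9 and 4252.7; array values below are in the same order. Both treated values lay above both untreated values. The log2 change was 0.64 ± 0.16 (SE), a 1.55-fold rise (limma, adjusted p = 0.0328). The log2 ratio of treated to untreated was 0.78 within date 1 and 0.49 within date 2. Every ratio given below for a date is such a log2 ratio. With no date block the gene did not pass (adjusted p = 0.182), nor with any 1 array left out (adjusted p from 0.104 to 0.862). Without untreated replicate 1 the change was 0.41 and without untreated replicate 2 it was 0.86. Its paralog Eif4a1 went the other way, from 7659.8 and 6718.6 to 6247.9 and 5276.6, with both treated arrays below both untreated ones. The log2 change of Eif4a1 was -0.32 ± 0.13 and did not pass (adjusted p = 0.174), and it was -0.20 without LGG replicate 2. The change of Eif4a2 exceeded that of Eif4a1 by 1.07 at date 1 and 0.84 at date 2, a difference noticed in the values and not tested. A further pair of Eif4a1 probe sets had values at date 2 only, and their log2 ratios were -0.38 and -0.65.

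**Figure D3:**
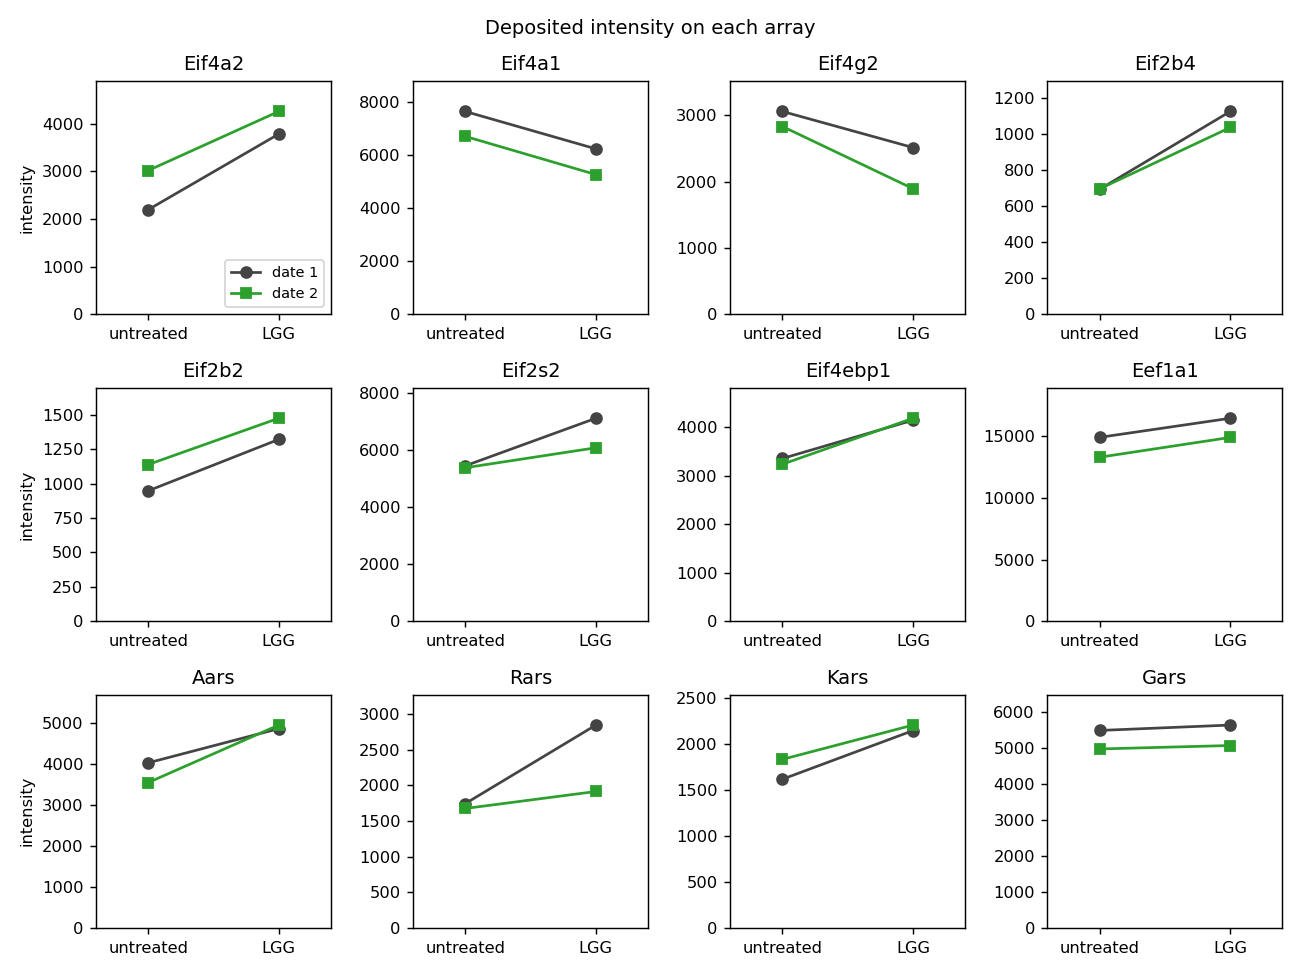
Deposited intensity (vertical axes, linear from 0) of 12 member genes on the 2 untreated and 2 LGG arrays, with a line joining the arrays of date 1 (circles) and of date 2 (squares). Both lines go up for Eif4a2 (2192.8 to 3778.9 and 3014.4 to 4252.7) and down for Eif4a1 and Eif4g2, while those of Gars are nearly level.

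Among the remaining eIF4 factors, 0 of 8 passed. Eif4g2 encodes a relative of the scaffold eIF4G that lacks the part which binds eIF4E. It measured 3054.8 and 2828.2 untreated and 2511.3 and 1892 treated, with no overlap of the groups (log2 change -0.43 ± 0.17, adjusted p = 0.176). The change was -0.22 without LGG replicate 2 and -0.63 without LGG replicate 1. A pair of other Eif4g2 probe sets, measured at date 2 only, had log2 ratios of -0.41 and -1.06, and the remaining one was below the intensity filter. Eif4e, the cap-binding protein, measured 2660.7 and 2578.3 untreated and 2976.8 and 3114.2 treated (0.22 ± 0.16, adjusted p = 0.506). Its treated values lay above its untreated values, but its 3 probe sets did not share a sign. The helicase cofactors Eif4b and Eif4h had log2 changes of -0.11 and 0.20, the scaffold gene Eif4g3 0.10, and the eIF4E relatives Eif4e2 and Eif4e3 0.00 and 0.32.

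The eIF4E binding proteins block assembly of the cap complex until mTOR phosphorylates them, and Eif4ebp1 is also a known ATF4 target. Eif4ebp1 measured 3357.1 and 3238.6 untreated and 4147.2 and 4186.6 treated, so the 2 groups were apart and close within themselves. The log2 change was 0.34 ± 0.15, with ratios of 0.30 and 0.37 at dates 1 and 2 and a 95% interval from 0.01 to 0.66, and it did not pass (adjusted p = 0.23). Eif4ebp2 had ratios of opposite sign at the dates (0.53 and -0.30). Eif4enif1, which carries eIF4E into the nucleus, had a log2 change of 0.15.

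The eIF2 and eIF2B group contained the next largest positive changes among the factor genes, and 0 of its 6 genes tested passed. Eif2s1, the alpha subunit of eIF2, had no probe set that met the rule, so it is not described. Eif2b4, the delta subunit of eIF2B, measured 694.7 and 696.8 untreated and 1126.5 and 1037.6 treated. The groups did not overlap, and the log2 change of 0.62 ± 0.21 was nearly that of Eif4a2 but did not pass (adjusted p = 0.109). The adjusted p was 0.0371 when each gene was taken as the mean of its probe sets, a setting under which 813 genes passed. Eif2b4 has 1 tested probe set, so its own change stayed at 0.62 under that setting. Eif2b2, the beta subunit, measured 948.3 and 1139.3 untreated and 1322.5 and 1476.6 treated (0.42 ± 0.20, adjusted p = 0.256). A second tested probe set of Eif2b2 had a change of 0.61 (adjusted p = 0.105). Another Eif2b2 probe set, with values at date 2 only, had a log2 ratio of -0.13. Eif2b1, the alpha subunit, had a log2 change of -0.09, with ratios of -0.31 and 0.12 at the dates. The interval of its change, from -0.55 to 0.37, overlapped those of Eif2b2 (from -0.01 to 0.85) and Eif2b4 (from 0.16 to 1.07). The fitted changes of these subunits thus differed in sign, but a difference between them was not tested. The beta subunit of eIF2, Eif2s2, measured 5435.5 and 5367.4 untreated and 7098.8 and 6066.4 treated (0.28 ± 0.13, adjusted p = 0.261). All 5 of its tested probe sets had a change above 0, from 0.28 to 0.59. The gamma subunit gene Eif2s3x had a change below 0 on all 3 of its tested probe sets, from -0.12 to -0.63. Eif2d, which can deliver tRNA to the ribosome without GTP, had a log2 change of 0.13.

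Of the eIF3 subunits, which form the large complex that holds the small ribosomal subunit, 0 of 9 passed and the changes on the brightest tested probe sets lay between -0.15 (Eif3c) and 0.22 (Eif3d). A second tested probe set of Eif3c had a change of -0.55 (adjusted p = 0.158). A pair of Eif3c probe sets with values at date 2 only had log2 ratios of 0.11. Eif3d measured 3079.1 and 3058.5 untreated and 3526.9 and 3610.2 treated, so its groups lay apart. Eif3f and Eif3m also had both treated arrays above both untreated ones, with log2 changes of 0.18 and 0.14. Eif3a, the largest subunit, had 4 tested probe sets whose changes ran from -0.51 to 0.12. The scanning factor genes Eif1a and Eif1ax had log2 changes of 0.27 and 0.19. The brightest Eif1ax probe set had ratios of 0.42 and -0.05 at the dates. A dimmer tested probe set of Eif1ax had a change of -0.50 (adjusted p = 0.339). Among the factors that act at and after subunit joining, Eif5a, which relieves ribosomes stalled at prolines, had a log2 change of 0.21, Eif6, which keeps free large subunits apart, 0.18, and Eif5, which triggers GTP hydrolysis on eIF2, -0.13. At date 2, a further 3 probe sets of Eif5 had ratios of -0.26, -0.43 and -0.64.

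Of 8 genes tested among the elongation factors and proteins named after them, 0 passed. Eef1a1 measured 14920 and 13307.6 untreated and 16470.1 and 14914.7 treated, so the groups overlapped. Its log2 change was 0.15 ± 0.10, with a 95% interval from -0.06 to 0.37, and turned to -0.05 under quantile normalization. Eef2 measured 10186.8 and 7916 untreated and 10607.5 and 9198.4 treated (0.14 ± 0.12, interval from -0.11 to 0.39), and its change was -0.04 without untreated replicate 2. Within the dates the ratios of Eef2 were 0.06 and 0.22. In both groups the Eef2 value of date 2 was below that of date 1, and the fit without untreated replicate 2 did not pair the arrays. The exchange factor subunits of eEF1A, Eef1b2 and Eef1d, had log2 changes of 0.06 and -0.24. Eef1e1, a small protein of the synthetase complex despite its name, had a log2 change of 0.25, and Eef1a2, the muscle and neuron form of eEF1A, -0.08. Eef2k, the kinase that inhibits eEF2, measured 164.3 and 120.2 untreated and 128.1 and 250.8 treated, with ratios of -0.31 and 0.92 at the dates. Eef1akmt1 is no elongation factor but a lysine methyltransferase of eEF1A, and it measured 306 and 316.9 untreated and 271.4 and 158.2 treated (-0.53 ± 0.27, adjusted p = 0.287). Its ratios were -0.16 and -0.90 at the dates, and the change was -0.18 without LGG replicate 2 and -0.88 without LGG replicate 1.

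Cytosolic synthetases load tRNAs for synthesis outside mitochondria, and Kars and Gars also serve the mitochondrion. Of the 17 tested, 14 had a change above 0, none beyond 0.44, and 0 passed. With 1 array left out and no date block, the number above 0 was 10 without untreated replicate 2 and 9 without LGG replicate 1. It was 15 without untreated replicate 1 and 16 without LGG replicate 2. Among all genes the share above 0 was 51.2%, 55.0%, 55.6% and 51.3% in the same order. Aars, the alanyl enzyme, measured 4037.2 and 3554.8 untreated and 4872.3 and 4961.3 treated. Its groups did not overlap, and the log2 change was 0.37 ± 0.15 (adjusted p = 0.165; 95% interval from 0.06 to 0.69). Rars, the arginyl enzyme, measured 1742.7 and 1674.1 untreated and 2843.3 and 1912.3 treated (0.44 ± 0.19, adjusted p = 0.206). Its log2 ratio was 0.70 at date 1 and 0.19 at date 2. The log2 change of Rars was 0.16 without LGG replicate 1 and 0.73 without LGG replicate 2. Kars, the lysyl enzyme, measured 1616 and 1831.3 untreated and 2144 and 2203.9 treated (0.33 ± 0.18, adjusted p = 0.326). Qars, Wars and Sars, which load glutamine, tryptophan and serine, also had treated arrays above untreated ones, with log2 changes of 0.29, 0.23 and 0.13.

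The other cytosolic enzymes had fitted changes near 0 on the brightest tested probe set. Gars, the glycyl enzyme, measured 5478.5 and 4965 untreated and 5627.9 and 5060.6 treated. Its log2 change of 0.03 had the narrowest interval of the synthetases, from -0.26 to 0.33. The changes of Yars (0.09), Farsa (0.08), Farsb (0.07), Tars (0.06), Lars (0.04), Vars (0.03), Iars (0.02), Cars (-0.01), Eprs (-0.03) and Hars (-0.04) all lay within 0.1 of 0, and the groups overlapped in each of these genes. Both subunits of the phenylalanyl enzyme, Farsa and Farsb, were among them. Eprs, the fused glutamyl and prolyl enzyme, had 3 tested probe sets with changes of -0.03, 0.15 and 0.25. The dimmer tested probe sets of Farsb and Iars had changes of -0.37 and -0.12.

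Nars, the asparaginyl enzyme, had values at date 2 only. Its probe sets measured 3075.5 and 3294.8 on the untreated array and 4487.2 and 4004.4 on the treated array. These are log2 ratios of 0.54 and 0.28 with no replicate. Of all 9 synthetase probe sets with values at date 2 only and above the intensity filter on an array, 6 were higher and 3 lower on the treated array. Those of Wars had ratios of 0.48 and 0.39, those of Qars 0.43 and -0.05, that of Tars2 0.20 and that of Farsb -0.29. Hars went from 1894.8 to 1388.2 (-0.44) on a probe set brighter than its tested one. Over all 43 member probe sets with values at date 2 only and above the intensity filter on an array, 18 were higher when treated. The share was 52.1% among all 3476 such probe sets. Synthetases gave 9 of the 43 and 6 of the 18, so the lower share came from the factor probe sets. The upward lean of the tested factor genes was thus not seen in these probe sets, but the lean was counted by gene and these by probe set. Several lower ones belong to genes whose tested change was also below 0, such as Eif5, Eif4a1, Eif4g2 and Eef1d. Others, such as those of Eif4h and Eif5a, were lower although the tested change was above 0. A ratio of at least 0.5 in size was seen in 12 of the 43, 4 higher and 8 lower, against 30.6% of all such probe sets. A probe set could pass the filter through 1 array alone, which favours large ratios. Among the 12, this held for those of Eif3m (70.5 untreated and 112.3 treated) and 1 of Eef1d (212.5 and 90.3). The 6 factor genes with values at date 2 only were Eef2kmt, Eif1b, Eif2b5, Eif3e, Eif3k and Eif5b. Eif1b, Eif2b5 and Eif3k measured 699.4, 566.9 and 2306.2 untreated and 631.1, 626.9 and 2337.3 treated. Ears2, Eef1aknmt and Eif2s3y were below the intensity filter.

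The mitochondrial synthetases, which are encoded in the nucleus and load mitochondrial tRNAs, were dimmer and showed no common direction. Of the 7 tested 0 passed and 4 had a change above 0. Fars2 measured 239.2 and 191.4 untreated and 243.1 and 333.5 treated (0.37 ± 0.27, adjusted p = 0.475), with a ratio of 0.02 at date 1 and 0.73 at date 2, and its change was 0.16 without LGG replicate 2 and 0.58 without LGG replicate 1. Sars2 measured 214.5 and 173 untreated and 189.9 and 111.3 treated (-0.35 ± 0.27, adjusted p = 0.513), and its change was -0.019 without LGG replicate 2 and -0.68 without LGG replicate 1. Both treated values of Fars2 lay above both untreated ones, and those of Sars2 overlapped. Between them lay Pars2 (0.14), Tars2 (0.09), Hars2 (0.05), Iars2 (-0.03) and Rars2 (-0.09). Tars2 and Hars2 also had treated values above untreated ones by small margins, 307.6 and 291.7 against 316.1 and 322.7 for Tars2 and 281.7 and 281.5 against 301.1 and 284.6 for Hars2.

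The log2 ratios were also read date by date. They had the same sign at both dates in 28 of 40 factor genes and 15 of 24 synthetase genes, against 65.2% of all genes. The factor genes had ratios above 0 in 28 of 40 cases at date 1 and 24 at date 2, and 20 were above 0 at both dates while 8 were below 0 at both. For the synthetases the numbers were 17 and 16 of 24, with 12 above 0 and 3 below 0 at both dates. Among all genes 35.1% were above 0 and 30.2% below 0 at both dates. Across genes the correlation of the ratios at the 2 dates was 0.27 for factors (n = 40) and 0.24 for synthetases (n = 24), against 0.55 for all genes (n = 6952). This is a description, since genes on the same arrays are not independent. Ratios of at least 0.5 in size were seen in 3 factor genes at date 1 and 5 at date 2, and in 1 and 2 synthetase genes, against 23.8% and 28.0% of all genes.

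**Figure D4:**
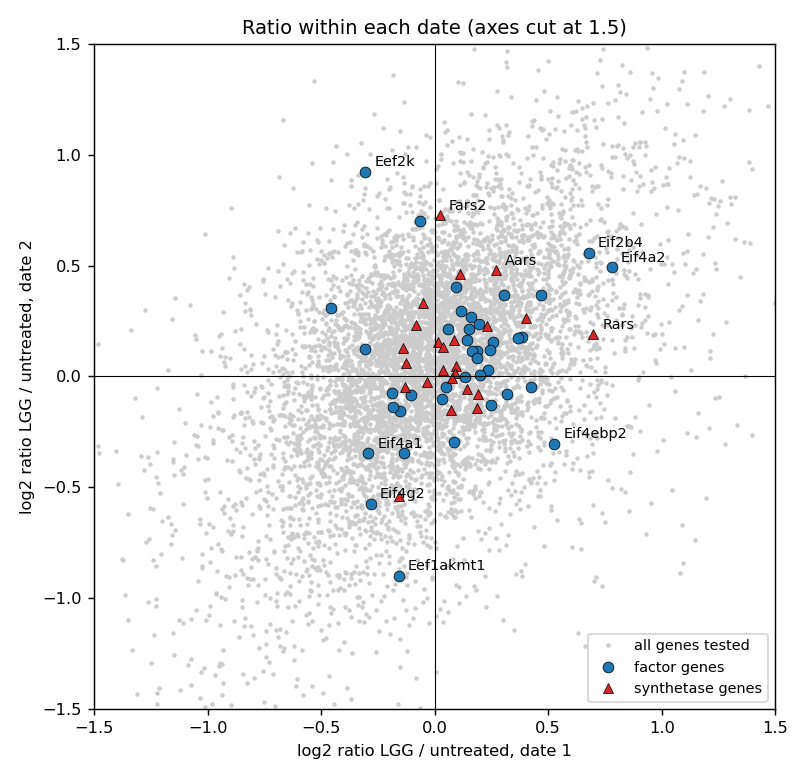
Log2 ratio of treated to untreated intensity at date 1 (horizontal axis) and date 2 (vertical axis) for all genes tested (grey), factor genes (circles) and synthetase genes (triangles), with axes cut at 1.5. Most members crowd around 0; Eif4a2 (0.78 and 0.49) and Eif2b4 (0.68 and 0.56) stand out at upper right, while Eef2k (-0.31 and 0.92) changed sign between the dates.

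The members were set beside other genes of the pathway. Of 20 amino acid response genes 4 rose and 1 fell, against 3.01% and 3.5% of all genes. Their median log2 change was 0.49, against 0.03 for all genes, and 18 of 20 were above 0, against 53.8%. This list was chosen with earlier results of these data known. These genes share the arrays and the contrast with the synthetases, so the values are given side by side and their difference was not tested. Ddit3, Nupr1, Trib3 and Slc3a2 rose by log2 changes of 2.26, 1.02, 0.99 and 0.79, and Cebpb fell by 0.98. Asns, which makes asparagine, and Atf4 itself had log2 changes of 0.53 ± 0.16 and 0.52 ± 0.16 and did not pass (adjusted p = 0.0697 and 0.0652). Among the genes whose promoter held the motif, the 6 response genes (Asns, Chac1, Nupr1, Slc7a11, Trib3 and Vldlr) had a median change of 0.65 and the 5 synthetases (Aars, Gars, Iars, Tars and Yars) one of 0.06. Of 18 response genes with a promoter in the table these 6 held the motif, and the other 12, Ddit3 among them, had a median change of 0.34. Of those synthetases Aars alone changed by more than 0.1. The 6 cytosolic synthetases whose promoter in the table had no match had a median of 0.10.

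Of 9 genes for eIF2 kinases and phosphatase subunits, all but Eif2ak4 were tested. Of these 8, 1 rose and 1 fell, against 3.01% and 3.5% of all genes. Ppp1r15a, which directs a phosphatase to eIF2 and so restores translation, rose by a log2 change of 1.54 ± 0.31 (adjusted p = 0.0109), with ratios of 2.36 at date 1 and 0.72 at date 2. Eif2ak2, the kinase PKR that senses double-stranded RNA, fell (-0.83 ± 0.23, limma, adjusted p = 0.0497), with ratios of -0.81 and -0.86. Its adjusted p lay just under the threshold, and Eif2ak2 was not followed under the other settings. Eif2ak3, the kinase of the endoplasmic reticulum, and Eif2ak1, the haem-regulated kinase, had log2 changes of 0.24 and -0.25. In the remaining lists 0 genes passed: 0 of 9 release, recycling and reinitiation factors, 0 of 10 poly(A) binding proteins and eIF4 regulators, 0 of 5 mitochondrial translation factors and 0 of 4 genes of the synthetase complex and related enzymes. Their largest changes of the same sign at both dates were those of Gspt2 (0.43), a release factor gene, Mknk2 (0.34), a kinase of eIF4E, Gfm1 (0.34), a mitochondrial elongation factor gene, and Aimp2 (-0.48), a scaffold of the synthetase complex.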

How the data were processed

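Expression in YAMC cells was measured with mouse 430A arrays. Linear intensity values were deposited by the authors in 1 table; their software and scaling are not given in the sources used here. Values were used as deposited and taken as log2(intensity + 25.2), a scale that understates the change of dim genes. A linear model of group plus date was fitted with limma 3.58.1 (R 4.3.3) and moderated by eBayes along intensity, and two-sided p-values were adjusted by Benjamini-Hochberg over the 10333 probe sets tested, after removal of 64 control probe sets and of probe sets with a mean under 101. The dates in the titles pair the arrays, and the date difference of the untreated arrays correlated at 0.27 with that of the treated arrays. With 1 residual and 12.5 prior degrees of freedom, errors rest mostly on variance shared across genes. For a single gene, the smallest two-sided p of an exact permutation within the 2 pairs is 0.5, so none was run. The fit was tested on simulated data, where large changes were recovered and false calls exceeded the nominal share in most runs. Changes as small as those fitted for the members were not simulated. Names came from the platform annotation, and 6 probe sets with several symbols, at least 1 of them matching the rule, were not used. Every member may be named; array values are given for members that passed, for the largest changes in each direction with the same sign at both dates, for fixed members (Eif4e, Eif4ebp1, Eef1a1, Eef2 and Eef2k) and, chosen after their values were seen, for some others such as Gars, Eif2s2 and Eif3d. Eif2s1 was fixed as well but had no probe set that met the rule. The members and lists were chosen with earlier results of these data known. The lists printed are the pathway lists, the marker lists and the motif. The promoter windows of Aars are not reported here. Figures were drawn with matplotlib 3.10.9.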

Additional observations from a re-analysis of the deposited data

How the results depend on the processing

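The number of arrays limits every value, and dim probe sets have no detection calls here. Each fit with 1 array left out also lacked the date block, so its changes compare arrays across the dates. For factors that fell and for synthetases that rose or fell, every setting and every left-out array gave 0 genes. The 1 factor gene that rose became 0 without date as a block (no replicate block), with median scaling, no filter or no intensity trend, and 2 (Eif4a2 and Eif2b4) with the mean of a gene's probe sets; with 1 array left out it was 0 in each case. Over all genes, 452 were called, against 61 without the block, 0 with no filter (1525 at an unadjusted p under 0.05), 813 with the mean of probe sets and 244 with no trend; with 1 array left out, and no block, the count ran from 0 (without either untreated replicate) to 428, with 187 without LGG replicate 2. The median of factors was 0.11 with the mean of probe sets and 0.074 to 0.16 with 1 array left out, and that of synthetases 0.080 with median scaling and 0.050 (without untreated replicate 2) to 0.15 (without untreated replicate 1) with 1 array left out. Eif4a2 kept a change of 0.41 to 0.86 with 1 array left out (adjusted p 0.104 to 0.862), and its adjusted p was 0.182 without the block, 0.0714 with median scaling, 0.17 with no filter and 0.154 with no trend; the causes were not tested. Only 20 members were followed one by one (those whose array values a rule fixed). Among these, signs turned for Iars2 (0.0058 under quantile normalization, and -0.12 to 0.057 with 1 array left out) and Eef1a1 (-0.054 under quantile normalization). They also turned for Eef2 (-0.044 without untreated replicate 2, to 0.32 without untreated replicate 1) and Eef2k (-0.11 without LGG replicate 2, to 0.73 without LGG replicate 1). The ratios of Eef2 within the dates were both above 0 (0.06 and 0.22).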

Other observations

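Probe sets of the same gene did not always move alike. Of 21 member genes with several tested probe sets, 6 had changes of both signs: Eif1ax, Eif3a, Eif4e, Eprs, Farsb and Iars. In Eif3a, the 2 brighter probe sets had log2 ratios at date 1 of 0.32 and 0.12, and the 2 dimmer ones -0.49 and -1.17. In Eif2s2, the beta subunit of eIF2, 1 of the 5 tested probe sets measured 2489.1 and 3203.9 on the untreated and 5759.5 and 2782 on the treated arrays, a ratio of 1.20 at date 1 and -0.20 at date 2, while the brightest had 0.38 and 0.18. In Eif2s3x, the gamma subunit, 1 probe set had ratios of -1.09 and -0.16, and the brightest -0.18 and -0.14.

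The dates also differed within single genes. Eef2k and Eif4ebp2, a kinase of eEF2 and a repressor of eIF4E, had ratios of opposite sign at the 2 dates, and Eif4ebp2 had probe sets at date 2 with ratios of 0.63 and -0.68. The dates are 1 pair of arrays each, so no difference between them was tested.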
